A study of Mus musculus with 25 samples.

Results

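The radiation response of the mouse lung was measured in animals that all received one of 3 compounds acting on receptors for sphingosine 1-phosphate (S1P), by setting all 9 irradiated animals against all 9 unirradiated ones with the compound as a blocking factor. These 18 arrays, of 25 in the series, were chosen by their labels, and the comparison was set with earlier results of these data known. Arrays of saline-treated mice and of mice irradiated without a compound were not used. Every mouse was a wildtype C57BL/6J female of 20 to 25 g and 14 to 17 weeks of age, and each array held lung RNA of 1 mouse.

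The 3 unirradiated groups, named fTyS, SEW and FTY, received (S)-FTY-phosphonate, SEW-2871 or FTY720, and the groups radiation+fTyS, radiation+SEW and radiation+FTY received the same compound and a single dose of 25 Gy to the chest (n = 3 each). Every compound was injected into the peritoneum at 0.1 mg/kg, 2 times per week, so doses were matched across compounds. FTY720 (fingolimod) becomes an agonist of S1P receptors once it is phosphorylated in the body. (S)-FTY-phosphonate is an FTY720 analogue with a phosphonate where that phosphate would be, and SEW-2871 is an S1pr1 agonist of unrelated structure. Since every animal carried a compound, the comparison describes radiation in treated mice, not radiation alone. The labels give no interval between irradiation and collection, no time of day and no batch.

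Ionizing radiation breaks DNA, and the transcription factor p53, stabilized by the damage signal, switches on genes that halt the cell cycle, repair DNA or start apoptosis. Chest irradiation of mice is a model of radiation pneumonitis and fibrosis, in which leukocytes enter the lung, vessels leak and matrix is laid down. S1P, a lipid made by sphingosine kinases, holds endothelial junctions together largely through S1pr1, which is why compounds that act on its receptors are studied in this setting.

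Before the comparisons, 2 unirradiated arrays stood apart. FTY replicate 3 carried thymocyte genes, with Rag1 at 11.91 log2 units against 4.09 to 4.79 on the other 17 arrays and Dntt at 10.40 against 5.49 to 6.06. Its T cell list mean was 9.76 (7.62 to 8.24 on the others) and its cell cycle list mean 9.29 (7.70 to 8.50 on the others). On fTyS replicate 3 the interferon response list averaged 10.34, against 8.93 to 9.88 elsewhere. Skeletal muscle genes averaged from 6.71 to 12.14 and adipocyte genes from 7.57 to 11.54 across arrays of both arms. The 3 prime over 5 prime log2 ratio of Gapdh, a measure of RNA integrity, ran from -0.17 to 0.187 (median -0.012) without radiation and from -0.124 to 0.427 (median 0.09) with it. Lung identity was plain on all 18 arrays, with Sftpc between 13.22 and 13.44, Ager between 13 and 13.19 and Scgb1a1 between 13.43 and 13.58 log2 units.

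**Figure D1:**
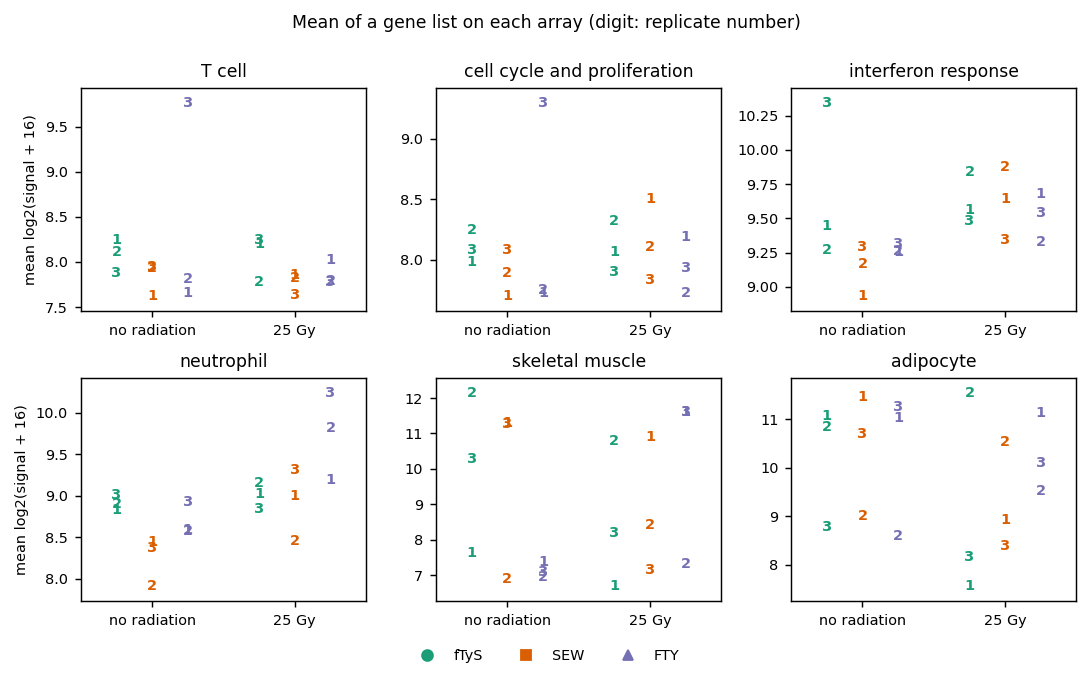
Mean log2(signal + 16) of the members of 6 gene lists (vertical axis) on each of the 18 arrays, split by radiation (horizontal axis), with colour for the compound and the digit for the replicate number. FTY replicate 3 is at 9.76 in the T cell panel and at 9.29 in the cell cycle panel, fTyS replicate 3 is at 10.34 in the interferon panel, and the muscle and adipocyte panels spread over both arms.

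Radiation changed the lung transcriptome broadly, and 2 of the 3 largest increases were of p53 targets. Of 12969 genes tested, 2806 (21.6%) passed an adjusted p of 0.05 (limma, Benjamini-Hochberg over all genes), 1890 of them higher (14.6%) and 916 lower (7.06%) in the irradiated arm. Most changes were small: 25 genes rose and 18 fell by more than 2-fold. The median log2 difference over all genes was 0.0282, with 57.8% of genes above 0, and the median half-width of a gene's 95% confidence interval was 0.137. In 241 genes (1.86%) no irradiated array overlapped any unirradiated one, and in 428 (3.3%) the arms of 3 and 3 were apart in the same direction under each compound, 297 higher and 131 lower. The sign was the same under each compound for 2487 of the called genes (1677 higher, 810 lower) and not for 319.

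Tested within one compound at a time, with the spread shared by the 18 arrays, 160 genes (1.23%) were called under fTyS, 2305 (17.8%) under SEW and 1864 (14.4%) under FTY. Of the 2806 genes of the pooled comparison, 126 were called under fTyS, 1543 under SEW, 1336 under FTY, 63 under each of them and 786 in none alone. The pooled comparison called 432 genes without the SEW arrays, 957 without the FTY arrays and 4111 without the fTyS arrays. With the Gapdh ratio of each array as a covariate it called 1594. Of the called genes named by rule, 11 had a further probe set of the opposite sign: Trp53bp1, Cxcl12, Cd55, Masp1, Plet1, Zap70, Prf1, Sgpp1, Degs1, Srxn1 and Tsc22d3.

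The 15 largest increases and the 15 largest decreases with one sign under each compound set the outline of the response. The increases held Psrc1 and Eda2r of the p53 response and the neutrophil genes Cd177, Csf3r and S100a9. They also held the clock output gene Dbp, the secretory genes Gp2 and Agr2, and Plau, the urokinase plasminogen activator. Gm6958, a predicted gene of unstated function, had the largest difference (2.52 ± 0.20 SE, n = 9 per arm; adjusted p = 7.93e-07). Prdm8, a PR-domain regulator, Slfn4, a Schlafen gene, and Wfdc21, a secreted protein, rose by 1.34 ± 0.18, 1.32 ± 0.24 and 1.28 ± 0.14 log2 units. Dglucy, a D-glutamate cyclase, and Rec8, a meiotic cohesin subunit, rose by 1.25 ± 0.14 and 1.20 ± 0.14.

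The 15 decreases were led by the inducible 70-kDa heat shock gene Hspa1a, and 8 of them were immunoglobulin chain genes or Jchain. Fuel genes Pdk4 and Angptl4 were among them. So were Nr4a3, a nuclear receptor of the immediate early kind, Krt79, a keratin, and Atp6v1b1, a proton pump subunit of ion-transporting epithelial cells, which fell by 1.03 ± 0.19 log2 units (adjusted p = 0.00145). The 8 immunoglobulin and Jchain values lay between -0.65 and -0.04 under FTY and between -3.15 and -1.12 under the other compounds. By an F test of equal radiation effects under the compounds, none of the 30 passed the threshold except Prdm8 (adjusted p = 0.0284). In tests of pairs of compounds, Prdm8 differed for fTyS minus SEW (-1.36, adjusted p = 0.0327) and fTyS minus FTY (-1.22, adjusted p = 0.0408). Igkv6-14 differed in the pair test of SEW minus FTY (-3.11, adjusted p = 0.0449), while its F test gave an adjusted p of 0.0513.

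**Figure D2:**
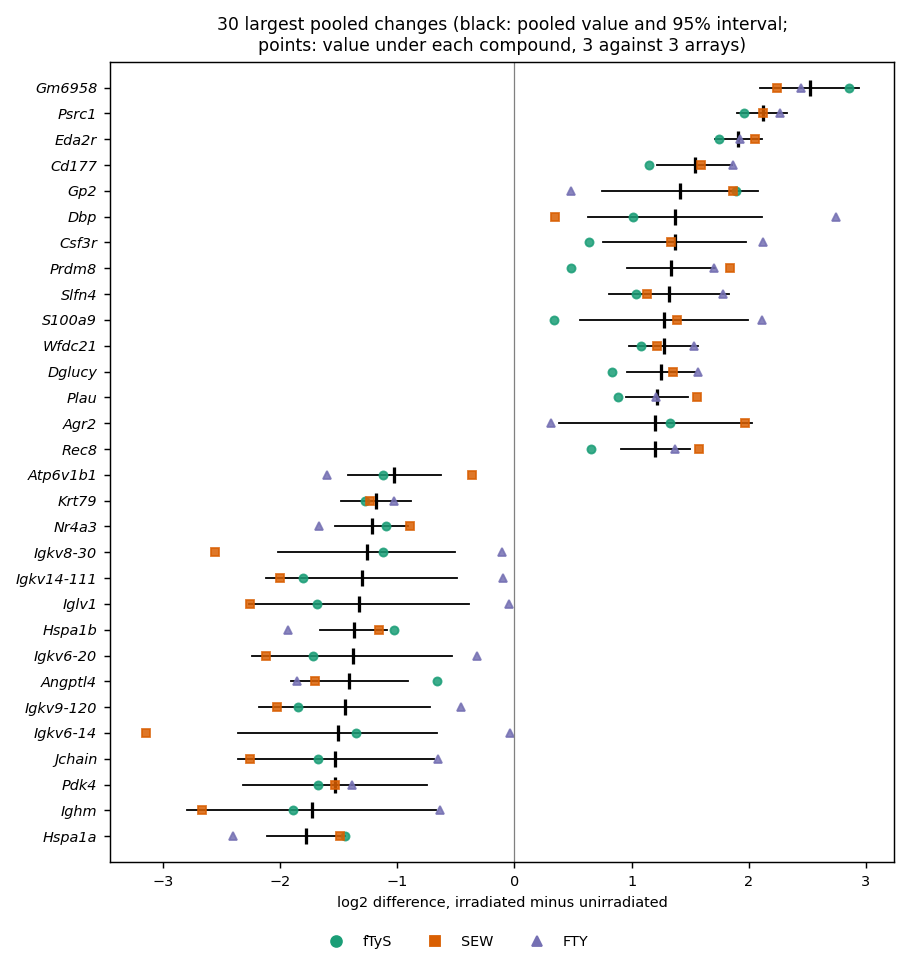
Log2 difference, irradiated minus unirradiated (horizontal axis), of the 30 genes with the largest pooled changes and one sign under each compound (vertical axis); black marks are the pooled value with its 95% confidence interval (9 against 9 arrays) and coloured points the value under each compound (3 against 3). The 3 compounds lie close together for Psrc1 (1.96, 2.12 and 2.27) and Krt79 (-1.28, -1.23 and -1.03) and far apart for Igkv6-14 (-1.35, -3.15 and -0.04).

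Genes of the p53 response rose together. Of the list's 27 members tested, 18 rose and 1 fell, against 14.6% and 7.06% of all genes, and the members' median log2 difference was 0.36 against 0.0282 over all genes. The same shares of all genes stand beside each list count below. The mean of the list ran from 9.81 to 9.96 on the irradiated arrays and from 9.30 to 9.54 on the unirradiated ones, so the arms did not overlap. Its median was 0.334 under fTyS, 0.41 under SEW and 0.42 under FTY. Leaving out any 1 array gave 17 to 19 members higher.

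Psrc1, a spindle-associated protein, ran from 8.45 to 8.81 log2 units on the irradiated arrays (median 8.67) and from 5.98 to 6.95 on the unirradiated ones (median 6.50). That is a clear gap between the arms on every array, a 4.35-fold rise (2.12 ± 0.10 SE, adjusted p = 1.81e-09). A second Psrc1 probe set moved by only 0.30. Eda2r, a receptor of the tumour necrosis factor family, ran from 8.43 to 9.04 (median 8.83) against 6.59 to 7.54 (median 6.71), 3.76-fold higher (1.91 ± 0.10, adjusted p = 2.16e-09). The highest unirradiated Eda2r value, on fTyS replicate 2, was still below every irradiated value.

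Phlda3, an inhibitor of Akt signalling, ran from 10.85 to 11.22 (median 11.01) against 9.35 to 10.18 (median 9.98), a difference of 1.08 ± 0.09. Zmat3, a zinc-finger RNA-binding protein, had the smallest error of these genes: 10.50 to 10.86 (median 10.76) against 9.67 to 9.90 (median 9.83), 0.91 ± 0.04 (adjusted p = 1.81e-09). Aen, a nuclease that promotes apoptosis, ran from 9.02 to 9.59 (median 9.51) against 8.43 to 8.69 (median 8.60), 0.88 ± 0.06. For all 3 the arms were apart, and they were apart within each compound as well.

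Cdkn1a, which encodes the cell cycle inhibitor p21, ran from 11.61 to 12.15 (median 12.03) against 10.68 to 11.76 (median 11.30), 0.68 ± 0.10 (adjusted p = 0.00028). Its arms overlapped when pooled, because SEW replicate 1 (11.76) was above radiation+fTyS replicate 2 (11.61) and radiation+FTY replicate 1 (11.67), but not within any compound. Ccng1, cyclin G1, rose by 0.68 ± 0.11. Mdm2, the ubiquitin ligase that degrades p53, rose by only 0.20 ± 0.06 (adjusted p = 0.0175), with 0.38, 0.27 and -0.03 under fTyS, SEW and FTY, and its arms overlapped.

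Among further members, named after their values were seen, Fas, a death receptor, was the one that fell (-0.55 ± 0.08, adjusted p = 0.000336). Polk, a translesion polymerase, rose by 0.56 ± 0.06, the metabolic enzyme gene Tigar by 0.46 ± 0.07 and the apoptosis genes Pmaip1 and Bbc3 by 0.39 ± 0.09 and 0.37 ± 0.13. Of the 27 members, 9 had arms that did not overlap, against 1.86% of all genes. The pooled value of Btg2, an antiproliferative gene, was 0.02 ± 0.08, but its values under fTyS, SEW and FTY (0.38, -0.06 and -0.27) differed (adjusted p = 0.0288). Double-strand break repair genes moved little: 1 of 17 rose (Trp53bp1, 0.12 ± 0.04) and 1 fell (Nbn, -0.30 ± 0.06). The 4 further probe sets of Trp53bp1 ran from -0.11 to 0.04, and 3 of them had the opposite sign.

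**Figure D3:**
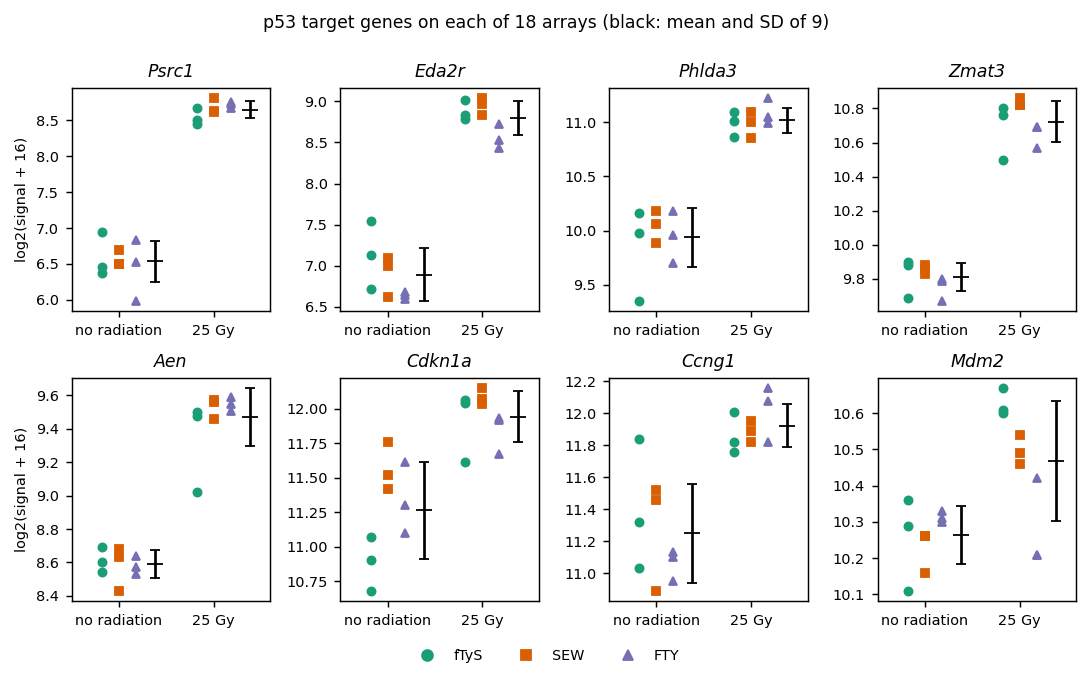
Log2(signal + 16) of 8 p53 target genes (vertical axis) on each of the 18 arrays without radiation and with 25 Gy (horizontal axis), coloured by compound, with the mean and SD of 9 arrays in black. The arms do not overlap for Psrc1, Eda2r, Phlda3, Zmat3 and Aen, and Mdm2 differs by 0.38 under fTyS, 0.27 under SEW and -0.03 under FTY.

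Promoter sequence is shown for Cdkn1a and Ccng1, targets whose windows carry p53 motifs, in the 250 bases before a RefSeq transcription start (build GRCm38.p6), written 5′ to 3′ on the strand of the gene. Capitals mark the matches. In Cdkn1a they cover 2 p53 consensus decamers and the spacer between them, ending 42 bases before the start counted from 1 at the base next to it, and in Ccng1 a single decamer. The Cdkn1a window is chr17:29090729-29090978 on the plus strand and the Ccng1 window chr11:40755287-40755536 on the minus strand.
Cdkn1a: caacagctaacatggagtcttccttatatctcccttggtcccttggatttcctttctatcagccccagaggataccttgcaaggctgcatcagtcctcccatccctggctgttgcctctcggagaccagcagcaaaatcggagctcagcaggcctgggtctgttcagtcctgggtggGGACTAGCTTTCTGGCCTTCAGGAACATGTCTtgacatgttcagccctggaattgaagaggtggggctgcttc
Ccng1: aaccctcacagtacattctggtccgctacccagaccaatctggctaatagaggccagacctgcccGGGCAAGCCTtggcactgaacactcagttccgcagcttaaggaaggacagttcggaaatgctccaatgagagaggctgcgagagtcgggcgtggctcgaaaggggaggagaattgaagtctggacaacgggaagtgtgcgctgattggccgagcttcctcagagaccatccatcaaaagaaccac

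Both strands were searched. A pair of decamers with a spacer of at most 13 bases was found in the windows of 18 of 27025 genes (0.0666%), of which Cdkn1a is the one in the list. A single decamer was found in 2216 genes (8.2%), and in 8 of the 21 tested p53 list members with a window: Aen, Ccng1, Cdkn1a, Ddit4l, Ei24, Mdm2, Polk and Sesn1. Of these, all but Ddit4l (1.01 ± 0.37, adjusted p = 0.059) rose. A match is only a description of the letters in the window. The windows of Psrc1 and Eda2r, the targets with the largest changes, held neither motif.

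Heat shock genes fell. Of the 11 members tested, 5 were lower and 0 higher, with a median of -0.22. Hspa1a ran from 8.59 to 9.74 log2 units on the irradiated arrays (median 8.89) and from 10.70 to 11.23 on the unirradiated ones (median 10.87), 3.43-fold lower (-1.78 ± 0.16 SE, adjusted p = 2.22e-06). Hspa1b, its near-identical neighbour, ran from 10.38 to 11.45 (median 10.91) against 12.19 to 12.51 (median 12.32), -1.37 ± 0.14. The arms of both genes were far apart on every array, and probe sets of so similar a pair may read both transcripts.

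Dnajb1, a co-chaperone of the 70-kDa proteins, fell by 0.69 ± 0.10, also with arms apart. Hsph1, a large heat shock protein, fell by 0.38 ± 0.10, and the mitochondrial chaperonin gene Hspd1 by 0.22 ± 0.07 (adjusted p = 0.0333; this call was lost in 8 of the 18 fits that left out 1 array). Cirbp, a cold-inducible RNA-binding protein named after its values were seen, was at 0.07 ± 0.14 pooled (adjusted p = 0.783). Its values of -0.56, 0.63 and 0.12 under fTyS, SEW and FTY differed (adjusted p = 0.0199).

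The promoter windows of Hspa1a (chr17:34972157-34972406, minus strand) and Hspa1b (chr17:34959239-34959488, minus strand) are printed because the pair had the clearest decrease. Capitals mark GAANNTTC, a pair of inverted units of the heat shock element, which reads the same on both strands.
Hspa1a: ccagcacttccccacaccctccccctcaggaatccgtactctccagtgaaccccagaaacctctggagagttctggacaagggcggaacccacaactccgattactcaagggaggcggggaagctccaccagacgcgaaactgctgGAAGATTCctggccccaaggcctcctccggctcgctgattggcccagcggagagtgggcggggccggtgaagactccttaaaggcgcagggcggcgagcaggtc
Hspa1b: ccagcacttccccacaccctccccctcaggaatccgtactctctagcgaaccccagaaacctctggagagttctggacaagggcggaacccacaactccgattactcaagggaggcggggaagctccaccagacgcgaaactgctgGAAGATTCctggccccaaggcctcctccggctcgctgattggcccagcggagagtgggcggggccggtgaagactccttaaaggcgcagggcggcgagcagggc

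The windows were identical at 247 of 250 positions, and the match ended 97 bases before the start in both. GAANNTTC was found in the windows of 2088 of 27025 genes (7.73%) and in 5 of the 9 heat shock list members with a window: Hspa1a, Hspa1b, Hspb1, Hspd1 and Hspe1. The opposite arrangement TTCNNGAA was found in 2193 genes (8.11%) and in Hspd1, Hspe1 and Hsph1.

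Genes induced by glucocorticoids fell as well, with 8 of 12 lower, 0 higher and a median of -0.447. Pdk4, a kinase that restrains pyruvate oxidation, ran from 8.39 to 10.87 (median 9.72) against 9.90 to 12.09 (median 11.10), -1.53 ± 0.37 (adjusted p = 0.0087). Angptl4, an inhibitor of lipoprotein lipase, ran from 8.30 to 10.54 (median 9.55) against 10.27 to 11.43 (median 10.93), -1.41 ± 0.24. The arms of both overlapped. Pdk4 moved with the adipocyte list mean within groups of both arms: on the SEW arrays it was at 11.50, 9.94 and 11.44 where that mean was 11.47, 9.01 and 10.71, and on the radiation+fTyS arrays at 8.43, 10.87 and 9.11 where it was 7.57, 11.54 and 8.15. The radiation+SEW arrays followed it less closely (9.77, 9.72 and 8.81 where it was 8.93, 10.53 and 8.39). With the skeletal muscle and adipocyte means as covariates, Pdk4 was at -1.22 (adjusted p = 0.00013). Tsc22d3, the leucine zipper gene induced by glucocorticoids, fell by 0.51 ± 0.09 and Errfi1, an inhibitor of the EGF receptor, by 0.52 ± 0.13. The 2 further probe sets of Tsc22d3 were split, at -0.78 and 0.40.

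Within this list 2 genes, named after their values were seen, differed between compounds. Fkbp5, a co-chaperone of the glucocorticoid receptor, had effects of 0.04, -1.84 and -0.67 under fTyS, SEW and FTY (adjusted p of the difference = 0.0199), and the zinc-finger gene Zbtb16 by 0.18, -1.31 and -0.74 (adjusted p = 0.0266). With the Gapdh ratio as a covariate, 5 of the 12 members were lower.

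Immediate early genes moved both ways, 4 of 18 higher and 4 lower, against 14.6% and 7.06% of all genes. Egr1, a zinc-finger factor induced by growth factors and stress, ran from 10.85 to 12.37 (median 11.34) against 9.94 to 11.20 (median 10.43), 0.90 ± 0.11, with 0.91, 0.92 and 0.86 under fTyS, SEW and FTY. Junb and Fos, partners in the AP-1 factor, rose by 0.47 ± 0.09 and 0.54 ± 0.14, and Ier3 by 0.33 ± 0.06. Against these, Jun fell by 0.33 ± 0.06, Klf4 by 0.33 ± 0.08 and Nr4a2 by 0.47 ± 0.13. Nr4a3 ran from 7.77 to 9.16 (median 8.47) against 9.39 to 9.99 (median 9.71) with no overlap, -1.22 ± 0.15. Fos, Ier3, Klf4 and Nr4a2 were named after their values were seen.

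Myeloid genes were higher in the irradiated lung. Of 16 monocyte and interstitial macrophage genes, 11 rose and 0 fell (median 0.327), and all 16 had a pooled value above 0. Ccr2, the receptor that brings monocytes into tissue, rose by 0.89 ± 0.11 (adjusted p = 4.67e-05), and its lowest irradiated and highest unirradiated values met at 9.18. Mrc1, the mannose receptor, ran from 9.94 to 10.45 (median 10.17) against 9.29 to 9.92 (median 9.85) without overlap, 0.40 ± 0.08. Ms4a7 and Cx3cr1, the fractalkine receptor, rose by 0.61 ± 0.11 and 0.56 ± 0.10. In whole tissue, a change in the number of such cells and a change in RNA per cell cannot be told apart. Leaving out any 1 array gave 10 or 11 members higher.

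Of 15 neutrophil genes on the array 9 were tested, and of these 5 rose and 0 fell. Their median was 0.57 (0.236 under fTyS, 0.568 under SEW and 1.379 under FTY). Pooled values were above 0 for 7 of the 9, and the granule genes Ngp (-0.27) and Ltf (-0.23), neither called, went the other way. Lcn2, the iron-trapping lipocalin that epithelium also makes, ran from 11.76 to 12.26 (median 11.93) against 10.47 to 11.45 (median 11.22) without overlap, 0.90 ± 0.11. S100a9, a subunit of calprotectin, ran from 8.76 to 12.55 (median 10.97) against 8.29 to 10.63 (median 9.78), 1.28 ± 0.34. It varied widely in both arms, highest on radiation+FTY replicates 3 and 2 (12.55 and 11.91). Its partner S100a8 rose by 1.14 ± 0.29, and Csf3r, which encodes the G-CSF receptor, by 1.37 ± 0.29. Mmp9 (0.51 ± 0.17, adjusted p = 0.045), named after its values were seen, lost its call in 12 of 18 fits without 1 array.

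Cd177, a surface glycoprotein of neutrophils, ran from 7.67 to 9.18 (median 8.83) against 6.40 to 7.84 (median 6.94), 2.91-fold higher (1.54 ± 0.15). The granule genes Ngp and Camp, made in neutrophil precursors, were high on arrays of both arms. Ngp was at 8.96 on fTyS replicate 3, 8.71 on FTY replicate 3, 8.94 on radiation+FTY replicate 2 and 9.82 on radiation+FTY replicate 3, and at most 7.24 on the other arrays. Whether blood or marrow cells in the samples have a part in the neutrophil values was not tested.

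Alveolar macrophage genes were split, with 4 of 12 higher and 3 lower. Ctsk, a cysteine protease, rose by 0.51 ± 0.07 with 0.50, 0.52 and 0.51 under fTyS, SEW and FTY, arms apart. Plet1, Chil3 and Abcg1 rose by 0.30 ± 0.07, 0.35 ± 0.09 and 0.19 ± 0.05. Krt79 ran from 6.55 to 7.41 (median 6.84) against 7.49 to 8.48 (median 8.04), -1.18 ± 0.14 (adjusted p = 4.69e-05), and no array of one arm reached the other. Fabp1, a fatty acid carrier, fell by 0.78 ± 0.18 and Siglecf, the surface lectin that marks these cells in mice, by 0.56 ± 0.14. Chil3, Abcg1 and Siglecf were named after their values were seen.

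Inflammatory signals were called about as often as all genes. Il1b, the pyrogenic cytokine, ran from 8.23 to 9.65 (median 8.50) against 7.03 to 8.38 (median 7.72), 1.08 ± 0.18. Il33, an alarmin, and the chemokine Ccl6 rose by 0.37 ± 0.09 and 0.31 ± 0.09, and Cxcl12, which retains leukocytes, fell by 0.27 ± 0.07. In all, 4 of 26 cytokine, chemokine and adhesion genes rose and 1 fell, near the shares of all genes. The list median was 0.039, with 0.083 under fTyS, -0.117 under SEW and 0.141 under FTY. The fourth increase, of the chemokine Ccl9 (0.49 ± 0.15), was named after its values were seen.

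Of 21 interferon-response genes, 7 rose and 0 fell (median 0.256), and 11 rose when fTyS replicate 3, the array with the highest interferon mean, was left out. Ifit3, an RNA-binding antiviral protein, ran from 10.19 to 10.91 (median 10.34) against 9.20 to 10.70 (median 9.48), 0.88 ± 0.15. Its unirradiated value of 10.70 was that of fTyS replicate 3, and the next highest was 9.65. Ifit1, Oas1a and Usp18 rose by 0.68 ± 0.17, 0.54 ± 0.14 and 0.34 ± 0.09.

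Of 12 complement genes, 4 rose: the regulator Cd55 (0.29 ± 0.06), the receptors C5ar1 (0.43 ± 0.14) and C3ar1 (0.28 ± 0.08), and the lectin-pathway protease Masp1 (0.19 ± 0.06). Only 1 remained above the threshold without radiation+SEW replicate 3, 2 without SEW replicate 1 or radiation+FTY replicate 2, and 1 with the Gapdh ratio as a covariate.

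Antibody genes were lower. Of 9 plasma cell and immunoglobulin genes, 4 fell and 2 rose, and the list median was -0.691 under fTyS, -1.125 under SEW and -0.025 under FTY. By the F test, no member's effect differed between compounds past the threshold (adjusted p = 0.536 for Ighm and 0.528 for Jchain). Ighm, the mu heavy chain, ran from 9.30 to 13 (median 11.08) against 11.94 to 13.07 (median 12.85), -1.73 ± 0.50 (adjusted p = 0.0225). Of the irradiated arrays, 4 lay between 9.30 and 9.69 (radiation+fTyS replicate 1, radiation+SEW replicates 1 and 3 and radiation+FTY replicate 2) and the other 5 between 11.08 and 13. Adipocyte genes moved with Ighm among the irradiated arrays: their list mean was 7.57, 8.93, 8.39 and 9.52 on those 4 arrays, 8.15 on radiation+fTyS replicate 3 (Ighm 11.08) and 10.10 to 11.54 on the remaining 4. In the unirradiated arm the adipocyte mean was as low on fTyS replicate 3 (8.78), SEW replicate 2 (9.01) and FTY replicate 2 (8.60). Ighm was at 11.94 (FTY replicate 2) or above on every array of that arm. The part of fat in the Ighm values was not tested. With the skeletal muscle and adipocyte means as covariates, Ighm was at -1.41 (adjusted p = 0.02), Jchain at -1.35 (0.0116) and Iglv1 at -1.10 (0.071).

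Jchain, which joins antibody units into polymers, fell by 1.53 ± 0.40 and the alpha heavy chain Igha, named after its values were seen, by 1.01 ± 0.30. The light chain gene Iglv1 fell by 1.33 ± 0.44 (adjusted p = 0.0412), a call lost in 12 of 18 fits without 1 array. The variable-region genes Igkv6-14, Igkv9-120, Igkv6-20, Igkv14-111 and Igkv8-30 fell by 1.26 to 1.51 log2 units, and such probe sets can read several related genes. The plasma cell genes Sdc1, a syndecan also of epithelium, and Prdm1, a repressor, rose by 0.17 ± 0.03 and 0.31 ± 0.07. Only 2 members fell without radiation+SEW replicate 1, radiation+SEW replicate 3 or radiation+FTY replicate 2, and 0 with the Gapdh ratio as a covariate.

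Other lymphoid genes moved little. None of 14 B cell genes passed the threshold by limma, with 1 higher and 0 lower at an unadjusted p under 0.05. The smallest p-values were those of Fcer2a (0.35 ± 0.13, adjusted p = 0.0573) and Cd79a (0.37 ± 0.21, adjusted p = 0.238). Of 12 T cell genes, 2 fell, Il7r (-0.52 ± 0.13), the interleukin 7 receptor, and Zap70 (-0.23 ± 0.06), a T cell receptor kinase, and both were called without fTyS replicate 3 and FTY replicate 3. Both further probe sets of Zap70 had the opposite sign (0.09 and 0.10). Of 10 cytotoxic genes, 1 fell, the perforin gene Prf1 (-0.27 ± 0.09, adjusted p = 0.043), with a second probe set at 0.03. Of 9 MHC class II genes Ctss, a protease, rose by 0.21 ± 0.03 and H2-Eb1 fell by 0.16 ± 0.05. The calls of Prf1 and H2-Eb1 were each lost in 12 of 18 fits without 1 array. Of 4 mast cell genes Hdc, which makes histamine, rose by 0.52 ± 0.08 with arms apart and Kit fell by 0.37 ± 0.11.

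Platelet genes fell in 4 of 10 and rose in 0: Clec1b, a platelet lectin receptor (-0.87 ± 0.20), Tubb1, platelet tubulin (-0.80 ± 0.26), Itga2b, the alpha chain of the fibrinogen receptor (-0.43 ± 0.15), and Gp5 (-0.23 ± 0.07). The list median was -0.728 under fTyS, -0.454 under SEW and 0.072 under FTY. The count was 1 without SEW replicate 2, and 2 without any one of fTyS replicates 1 to 3, SEW replicate 3, FTY replicate 3, radiation+fTyS replicates 1 and 3, radiation+SEW replicates 1 and 3 or radiation+FTY replicate 1. The red cell genes Alas2 and Slc4a1, a sign of blood in the tissue, had pooled values of -1.22 ± 0.51 (adjusted p = 0.0978) and -0.80 ± 0.35 (adjusted p = 0.109). The part of blood in the platelet values was not tested.

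Endothelial genes fell in 5 of 28 and rose in 2, against 7.06% and 14.6% of all genes. Gpihbp1, which anchors lipoprotein lipase on capillaries, ran from 10.49 to 11.15 (median 10.83) against 11.17 to 12.00 (median 11.58), -0.77 ± 0.10, and Sox17, an arterial factor, from 9.85 to 10.55 (median 10.33) against 10.63 to 11.09 (median 10.88), -0.58 ± 0.10. Neither gene's arms overlapped. Aplnr, the apelin receptor, fell by 0.90 ± 0.17, Tek, the angiopoietin receptor, by 0.40 ± 0.06, and Emcn, a sialoglycoprotein, by 0.48 ± 0.11. The ligand gene Apln rose by 0.67 ± 0.14 and the endothelin receptor gene Ednrb by 0.16 ± 0.04. Emcn, Apln and Ednrb were named after their values were seen. Of pan-endothelial genes, Cdh5 lay between 12.22 and 12.55 on all arrays and Pecam1 between 10.51 and 11.46.

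Matrix genes rose. Of 21 collagen and structural matrix genes, 9 rose and 0 fell (median 0.175). Col5a2, a chain of fibril-forming collagen V, ran from 9.95 to 10.80 (median 10.65) against 9.62 to 10.21 (median 10.08), 0.52 ± 0.08, and Col1a1, of collagen I, from 9.26 to 10.13 (median 9.76) against 8.74 to 9.56 (median 9.35), 0.50 ± 0.11. Both overlapped between arms, while Col6a1 (0.36 ± 0.06) did not, and Col6a2 rose by 0.32 ± 0.08. Only 5 of the 21 were called without fTyS replicate 3, SEW replicate 1, FTY replicate 3, radiation+SEW replicate 1 or radiation+FTY replicate 3. The pericyte genes Pdgfrb and Cspg4 rose by 0.33 ± 0.05 and 0.47 ± 0.11, and Inmt by 0.10 ± 0.03. These were the 3 called of 14 mesenchymal genes (21.4%), near the 21.6% called of all genes.

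Proteases of the matrix and their inhibitors rose in 6 of 16 and fell in 1. Plau ran from 7.34 to 8.14 (median 7.74) against 6.16 to 6.85 (median 6.49) without overlap, 2.33-fold higher (1.22 ± 0.13), and the other plasminogen activator, Plat, ran the opposite way (-0.59 ± 0.16). Timp1, an inhibitor of metalloproteinases, rose by 0.77 ± 0.12, the gelatinase gene Mmp2 by 0.49 ± 0.10 and the macrophage elastase gene Mmp12 by 0.64 ± 0.18. With the Gapdh ratio as a covariate, 3 of these 16 were higher.

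Signals of the TGF-beta family moved both ways, 5 of 24 higher and 4 lower, against 14.6% and 7.06% of all genes. Ltbp2, a latent TGF-beta binding protein, rose by 0.50 ± 0.08, and Pmepa1, a feedback inhibitor, by 0.27 ± 0.03. Thbs1, thrombospondin 1, which can activate TGF-beta, ran from 9.17 to 10.89 (median 10.37) against 10.74 to 11.31 (median 11.06), -0.79 ± 0.16, and Bmp6 fell by 0.42 ± 0.09. Named after their values were seen, Tgfb1, Ltbp3 and Bmp4 rose by 0.31 ± 0.09, 0.25 ± 0.06 and 0.22 ± 0.07, and Tgfbr3 and Smad4 fell by 0.18 ± 0.05 and 0.07 ± 0.02. The count of increases was 3 without SEW replicate 3 or FTY replicate 1.

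Of 13 senescence-associated genes, 4 rose and 1 fell. Besides Cdkn1a, Timp1 and Mmp12, the cell cycle inhibitor Cdkn2b rose by 0.30 ± 0.06, and Igfbp3, named after its values were seen, fell by 0.33 ± 0.10. None of 26 cell cycle genes passed the threshold by limma, with 1 higher and 1 lower at an unadjusted p under 0.05: Mcm2 (0.39 ± 0.15, adjusted p = 0.0807), a replication helicase subunit, and Pcna, the polymerase clamp (-0.20 ± 0.08, adjusted p = 0.108).

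Few alveolar epithelial genes were called, and more of the airway secretory ones. In the alveolar type 2 list Scd1 rose by 0.16 ± 0.05 and the lineage factor Nkx2-1 fell by 0.28 ± 0.08 (2 of 12), and in the type 1 list Pdpn rose by 0.17 ± 0.04 (1 of 14). Of 14 airway secretory genes, 4 rose and 2 fell, with a list median of 0.073 under fTyS, 0.101 under SEW and -0.316 under FTY. Gp2, a membrane glycoprotein of secretory cells, ran from 5.96 to 8.79 (median 8.13) against 5.76 to 7.29 (median 6.34), 1.41 ± 0.31. It was lowest among irradiated arrays on radiation+FTY replicate 3. Agr2, a disulfide isomerase for mucins, rose by 1.20 ± 0.39 (adjusted p = 0.0374), a call lost in 10 of 18 fits without 1 array. Under fTyS, SEW and FTY the effects were 1.89, 1.87 and 0.48 for Gp2 and 1.33, 1.97 and 0.31 for Agr2. By the F test neither differed past the threshold (adjusted p = 0.346 and 0.501).

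The club cell genes Scgb1a1 and Scgb3a2 rose by only 0.07 ± 0.02 each at signals near the top of the scale, Cyp2f2 fell by 0.13 ± 0.03, and Chad, a matrix protein of cartilage, fell by 0.52 ± 0.16. Scgb3a2 was named after its values were seen. The count of increases in the airway list was 2 without any one of fTyS replicate 3, SEW replicates 1 to 3, radiation+fTyS replicate 3 or radiation+SEW replicates 1 and 2. None of 12 ciliated cell genes passed the threshold by limma, with 1 higher and 0 lower at an unadjusted p under 0.05. Ccdc113 was at 0.23 ± 0.10 (adjusted p = 0.1) and Tppp3 at -0.13 ± 0.06 (adjusted p = 0.171). Of 10 mesothelial genes, Upk1b rose by 0.22 ± 0.06.

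Clock genes rose in 5 of 18 and fell in 2, against 14.6% and 7.06% of all genes. Dbp, a clock output factor, ran from 9.24 to 11.29 (median 10.97) against 7.76 to 10.42 (median 9.31), 1.37 ± 0.35, with 1.01, 0.35 and 2.75 under fTyS, SEW and FTY. Within the unirradiated arm it was lowest in the FTY mice (7.76, 9.02 and 8.26). Hlf, of the same family as Dbp, rose by 0.74 ± 0.11, and Per3 and Bhlhe40, repressors in the clock, by 0.63 ± 0.18 and 0.48 ± 0.09. Named after their values were seen, Tef rose by 0.38 ± 0.12, Arntl, the activator that drives the clock, fell by 0.68 ± 0.22 and Per1 by 0.39 ± 0.13. Calls of Arntl and Per1 were lost in 8 and 11 of the 18 fits without 1 array. The time of day at collection is not in the labels, so it cannot be set beside these values.

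Genes of cholesterol and fatty acid synthesis rose in 11 of 23 and fell in 0 (median 0.158). Cyp51, a sterol demethylase, ran from 9.82 to 10.12 (median 9.91) against 9.29 to 9.67 (median 9.49) without overlap, 0.46 ± 0.06. Dhcr7, the last enzyme of cholesterol synthesis, Srebf1, a regulator of lipid synthesis, and Scd2, a desaturase, rose by 0.52 ± 0.09, 0.32 ± 0.08 and 0.20 ± 0.04. The count was 6 without SEW replicate 2 and 7 without FTY replicate 1, radiation+SEW replicate 1 or radiation+SEW replicate 2. Of 18 genes of oxidative stress and glutathione, 5 rose (27.8%, against 14.6% of all genes). They were Gsr (0.33 ± 0.07), Gss (0.27 ± 0.06) and Gclc (0.27 ± 0.06) of glutathione handling, the sulfiredoxin gene Srxn1 (0.33 ± 0.08) and Gpx3 (0.16 ± 0.05), named after its values were seen.

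In the S1P system, the target of the 3 compounds, 3 of 15 members rose and 3 fell, against 14.6% and 7.06% of all genes. S1pr1, the endothelial and lymphocyte receptor on which these compounds act, ran from 9.27 to 10.60 (median 10.03) against 10.14 to 11 (median 10.87), 1.61-fold lower (-0.69 ± 0.16, adjusted p = 0.00655). Values under fTyS, SEW and FTY were -0.25, -0.81 and -1.01, and the arms overlapped. S1pr3, a receptor of vessel wall and mesenchymal cells, ran from 11.14 to 11.43 (median 11.31) against 10.65 to 11.08 (median 10.87) and rose by 0.45 ± 0.05 (adjusted p = 2.85e-05), with no overlap. For S1pr2 and S1pr4 the differences were 0.12 (95% interval -0.01 to 0.25) and -0.04 (-0.21 to 0.14), and S1pr5 was below the level needed to be tested.

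Plpp1, a surface phosphatase that degrades S1P, ran from 11.04 to 11.39 (median 11.20) against 11.36 to 12.06 (median 11.76), -0.52 ± 0.07, and Sgpp1, an intracellular S1P phosphatase, rose by 0.23 ± 0.04 with arms apart. The kinases went opposite ways, Sphk1 down by 0.32 ± 0.08 and Sphk2 up by 0.26 ± 0.07. A second probe set of Sphk1 was at -0.01, so its decrease rests on 1 probe set. The lyase Sgpl1 was at 0.12 (-0.02 to 0.26). Of 21 ceramide and sphingomyelin genes, the sphingomyelinase gene Smpd1 and the desaturase gene Degs1 rose by 0.19 ± 0.05 and 0.11 ± 0.03, and the ceramidase gene Acer2 fell by 0.36 ± 0.07, with -0.35, -0.36 and -0.38 under fTyS, SEW and FTY.

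Muscle and fat genes, whose source in these samples was not tested, are described by 3 lists in which no gene passed the threshold by limma; at an unadjusted p under 0.05 these held 0 skeletal muscle, 0 cardiac and 2 adipocyte genes, both lower. Of 17 skeletal muscle genes Myh1 was at 1.07 ± 1.53, of 14 cardiac genes Tbx20 was at 0.43 ± 0.37 and Myl2 at -0.79 ± 1.06, and of 10 adipocyte genes Pck1 was at -2.45 ± 0.89 (adjusted p = 0.0584) and Lipe at -0.75 ± 0.31. All 10 adipocyte genes had a pooled value below 0. The skeletal muscle list median was -1.379 under fTyS, -1.01 under SEW and 2.799 under FTY. The mean of that list was 7.38, 6.96 and 7.08 on the FTY arrays and 11.61, 7.31 and 11.60 on the radiation+FTY arrays. The part of muscle in the differences between compounds was not tested. With the skeletal muscle and adipocyte means of each array as covariates, 10 instead of 5 endothelial genes were lower.

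**Figure D4:**
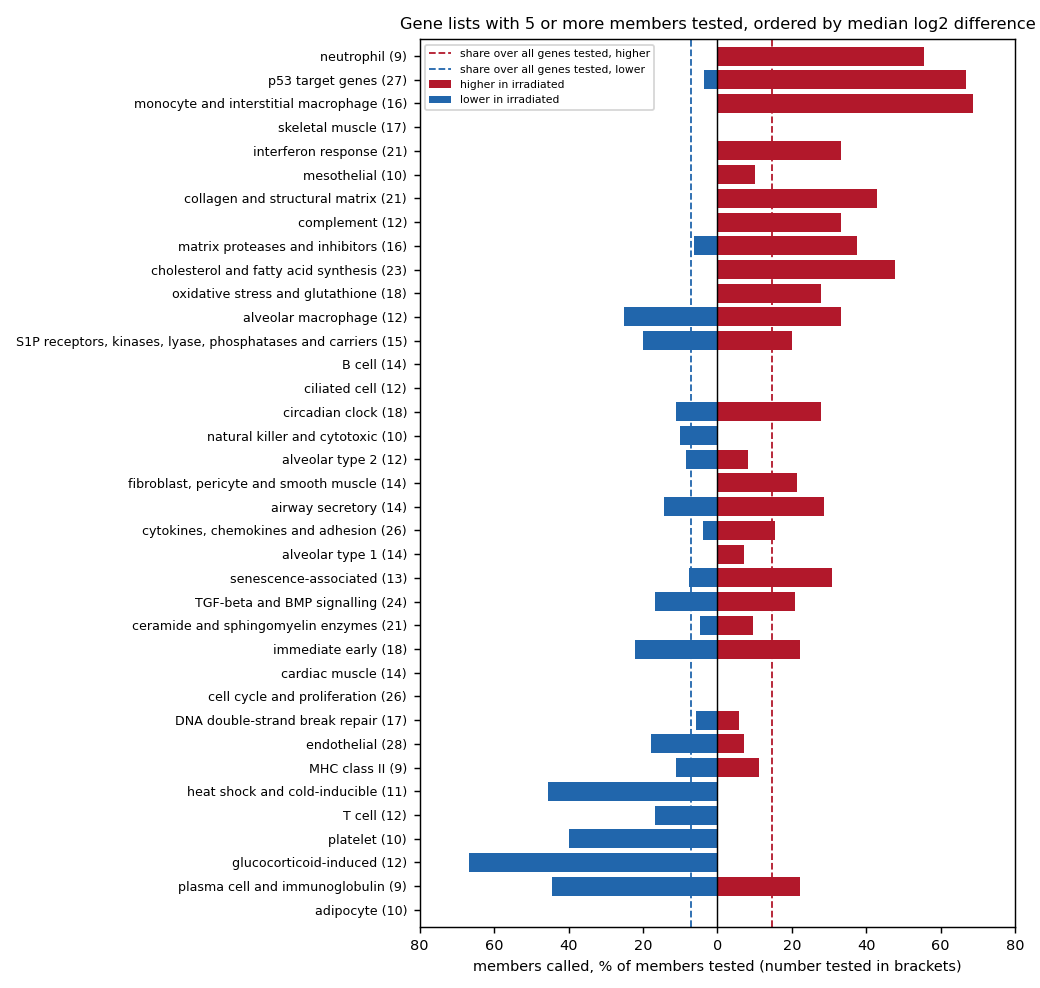
Share of the tested members of each gene list called higher (right) or lower (left) in the irradiated arm, in % of members tested (horizontal axis), for lists with 5 or more members tested, ordered by median log2 difference; dashed lines are the shares over all 12969 genes, 14.6% higher and 7.06% lower. The p53, monocyte and neutrophil bars pass the right line by the most, and the glucocorticoid and heat shock bars the left one.

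Whether radiation acted differently under the 3 compounds was tested gene by gene at matched doses. An F test of equal radiation effects called 253 of 12969 genes (1.95%), of which 111 were also called in the pooled comparison. Over 3 pairs of compounds, with adjustment over genes and pairs together, the radiation effects of fTyS and SEW differed in 219 genes (1.69%), those of fTyS and FTY in 108 (0.833%) and those of SEW and FTY in 35 (0.27%). In 169 of the 219 and 75 of the 108 the effect was more negative under fTyS. For most genes no difference was shown, at a median 95% half-width of 0.313 log2 units per pair.

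These counts were unstable. Leaving out 1 array gave between 8 and 647 genes by the F test, with 8 without fTyS replicate 1 or 2 and 647 without fTyS replicate 3. Without both arrays that stood apart it gave 866, and after median centring 55. Single genes are therefore given as the values of these arrays.

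Pik3r3, a regulatory subunit of PI 3-kinase, had the smallest p (adjusted p = 0.00532). Its effect was 1.14 under SEW, from 8.14, 8.37 and 8.18 on the unirradiated arrays to 9.29, 9.48 and 9.35, and was at 0.19 under fTyS and 0.11 under FTY. The differences were -0.95 (95% interval -1.20 to -0.70) for fTyS minus SEW and 1.03 (0.78 to 1.28) for SEW minus FTY. The irradiated arrays of the other compounds lay between 8.91 and 9.35, and the unirradiated SEW arrays were the low ones of all 18.

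Fat4, an atypical cadherin, and Spats2 had the same form. Fat4 was at 9.07, 8.91 and 9.09 on the unirradiated SEW arrays and between 9.34 and 9.85 on all others, with radiation effects of -0.32, 0.55 and 0.04 under fTyS, SEW and FTY (adjusted p = 0.012). Spats2 was at 8.72, 8.89 and 8.83 on the unirradiated SEW arrays and between 9.14 and 9.56 on all others, with effects of -0.06, 0.70 and 0.07 (adjusted p = 0.0152).

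Azin1, which protects ornithine decarboxylase from its antizyme, differed in another way, with 0.36 under fTyS, 0.17 under SEW and -0.15 under FTY (adjusted p = 0.012). Sh3rf2, a ubiquitin ligase, was at -0.05 under fTyS and at 0.84 and 0.83 under SEW and FTY (adjusted p = 0.0152). The difference of Sh3rf2 between SEW and FTY was 0.01 (-0.27 to 0.28). Prdm8 had effects of 0.48, 1.84 and 1.70 under fTyS, SEW and FTY and had its highest unirradiated values under fTyS (7.09, 7.23 and 6.67, against 5.69 to 6.42 under the others).

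**Figure D5:**
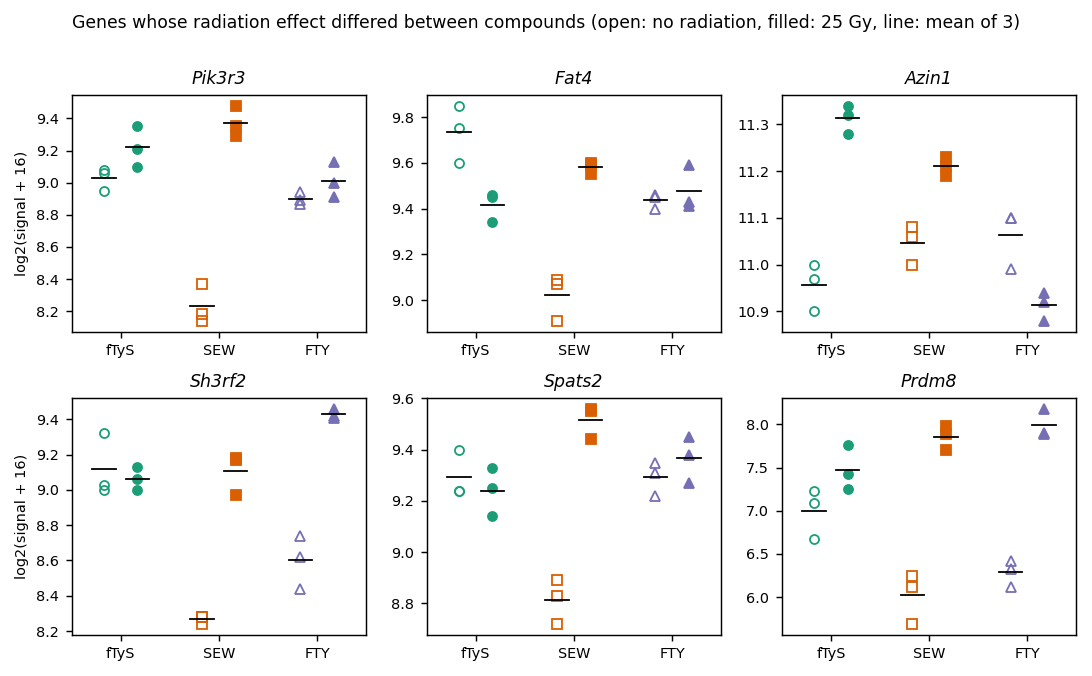
Log2(signal + 16) (vertical axis) of 6 genes whose radiation effect differed between compounds, for the 3 compounds (horizontal axis), with open symbols without radiation, filled symbols with 25 Gy and a line at the mean of 3 arrays. For Pik3r3, Fat4 and Spats2 the unirradiated SEW arrays (8.14 to 8.37, 8.91 to 9.09 and 8.72 to 8.89) are the low ones.

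The 8 p53 target genes plotted by array did not differ past the threshold in any pair of compounds. The unadjusted 95% intervals of Mdm2 and Cdkn1a excluded 0 in some pairs, and those of the other plotted genes did not. Mdm2 differed by 0.41 (0.20 to 0.61) for fTyS minus FTY and 0.30 (0.10 to 0.50) for SEW minus FTY. Cdkn1a differed by 0.51 (0.06 to 0.95) for fTyS minus SEW and 0.52 (0.08 to 0.96) for fTyS minus FTY. For Zmat3 the difference was -0.11 (95% interval -0.34 to 0.12) for fTyS minus SEW, -0.03 (-0.26 to 0.20) for fTyS minus FTY and 0.08 (-0.15 to 0.31) for SEW minus FTY. For Psrc1 the same differences were -0.16 (-0.70 to 0.39), -0.31 (-0.85 to 0.24) and -0.15 (-0.69 to 0.39). For S1pr1 they were 0.56 (-0.21 to 1.34), 0.76 (-0.02 to 1.53) and 0.20 (-0.58 to 0.97). Sphk2 alone among these S1P genes differed in a pair, by -0.54 (-0.80 to -0.29) for fTyS minus FTY (adjusted p = 0.0465).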

How the data were processed

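Lung RNA was amplified and labelled from 6 µg of total RNA and hybridised to Affymetrix arrays, 1 mouse per array. The authors deposited a signal intensity per probe set on a linear scale, computed with GCOS (version not given) per the submitters' processing notes. The step that made arrays comparable is not given in the sources used here. Of 45101 probe sets, 64 controls were left out, 34945 had 1 gene symbol, 932 several and 9160 none. Values became log2(signal + 16), so fold changes of low genes are understated. Each of 18193 genes was represented by 1 probe set, and 12969 genes above the 40th percentile of mean level (6.499 log2 units) were tested with limma 3.58.1 (R 4.3.3, trended eBayes, two-sided), with compound and radiation as terms (14 residual degrees of freedom). A fit of 6 group means (12 residual degrees of freedom) gave the effect under each compound and their differences. Genes with a Benjamini-Hochberg adjusted p of at most 0.05 were called. The scripts were tested on simulated data. Arrays are separate mice; their number limits the precision.

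Named genes were the 15 largest increases and decreases with one sign under each compound, up to 4 called members per list (2 of smallest p where none was called), fixed p53 and S1P genes and the 5 genes that differed most between compounds. The comparison and the 40 lists (658 of 710 entries matched) were chosen with earlier results of these data known. Promoter sequences are from RefSeq, GRCm38.p6. Alternatives covered scaling, filtering, probe set choice, array weights, covariates, the replicate number as a block and leaving out arrays. Deviations of same-numbered mice correlated above 0.1 in 6 of 9 pairs, all 3 of fTyS among them, with a range from -0.725 to 0.762. Since not every pair did, and the labels name no shared source, the numbers were not used as a block in the main comparison.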

Additional observations from a re-analysis of the deposited data

Results flagged for a closer look

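In an arm of 9 arrays, a value is listed here where its gap to the nearest other array passes Dixon's 95% critical value. Chance alone picks about 1 in 20, and 23 of 378 sets of values examined were picked. The unirradiated array FTY replicate 3 accounted for 8. It was high for the cell cycle genes Mcm2 (9.96 log2 units, nearest 8.89) and Pcna (11.89, nearest 11.44) and low for Ccl6 (10.85, nearest 11.36), C5ar1 (5.85, nearest 6.43) and Col6a1 (10.05, nearest 10.38). Its list means were high for double-strand break repair (8.51, nearest 8.31), cell cycle (9.29, nearest 8.25) and T cells (9.76, nearest 8.24).

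The unirradiated array fTyS replicate 3 accounted for 6, all high: Ifit3 (10.70, nearest 9.65), Ifit1 (9.61, nearest 8.66), Oas1a (9.53, nearest 8.71), Kit (10.93, nearest 10.53) and the means of the interferon list (10.34, nearest 9.45) and the cytotoxic list (8.30, nearest 7.77). Of the irradiated arrays, radiation+SEW replicate 1 was low for the clock genes Dbp (9.24, nearest 10.26) and Per3 (8.21, nearest 8.97) and high in the p53 list mean (9.96, nearest 9.87). Radiation+fTyS replicate 2 was low for Aen (9.02, nearest 9.46), Ltbp2 (9.91, nearest 10.26) and Hsph1 (10.36, nearest 10.77). Radiation+fTyS replicate 1 was low for Rec8 (7.37, nearest 7.99) and the ciliated cell list mean (9.22, nearest 9.55), and FTY replicate 2 for Ighm (11.94, nearest 12.50).

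Among the named genes, the radiation effect differed between compounds by the F test for 7: Pik3r3 (adjusted p = 0.00532), Fat4 and Azin1 (0.012 each), Sh3rf2 and Spats2 (0.0152 each), Prdm8 (0.0284) and Myl2, a myosin gene of the cardiac list (0.0475). Myl2 had effects of -4.19, -2.07 and 3.88 under fTyS, SEW and FTY, and its pooled value was -0.79 ± 1.06 SE (n = 9 per arm). In the same order, the list medians were 0.143, 0.361 and -0.418 for cardiac muscle and -1.379, -1.01 and 2.799 for skeletal muscle. Outside the comparison of named genes, 4287 probe sets with no gene symbol or with several were tested, with adjustment among themselves. Of these, 622 were called (14.5%), 348 higher and 274 lower.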

How the results depend on the processing

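The pooled comparison called 2806 genes, 67.4% of them higher. It called 2591 after quantile normalization (61.2% higher) and 2490 after median centring (60.2% higher), 1594 with the Gapdh covariate, 432 without the SEW arrays, 957 without the FTY arrays, 160 within fTyS alone and 1864 within FTY alone. Leaving out 1 array gave 2121 to 3296. The differences between compounds were far less stable. The F test (253) gave 127 after quantile normalization, 55 after median centring, 138 without the filter, 82 with the mean of probe sets, 3730 with array weights, 683 with skeletal muscle and adipocyte covariates, 66 with the Gapdh covariate and 8 to 647 without 1 array. The pairs (362 calls) gave, in that order, 96, 29, 132, 137, 5826, 889, 89 and 4 to 970. With the replicate block the pooled comparison called 1992 genes (numbers within compound) or 2482 (across compounds), the F test 2 or 71 and the pairs 3 or 76. The numbers mark no shared source in the labels, and 2 of 18 arrays correlated best with their own number. Of alternatives chosen after seeing the data, leaving out fTyS replicate 3 and FTY replicate 3 gave 2343, 866 and 1265. The F test gave 426 with the T cell covariate and 397 with skeletal, cardiac muscle and adipocyte covariates. The causes were not tested. Signs turned for Trp53bp1 (-0.0042) and Cxcl12 (0.0201) with the mean of probe sets. They turned within FTY alone for Tubb1 (0.214), Itga2b (0.0951), Mdm2 (-0.0311) and Scgb3a2 (-0.0115), and within SEW alone for Nr4a2 (0.0881). Within fTyS alone they turned for Degs1 (-0.0063), Sh3rf2 (-0.0524), Sphk2 (-0.0599), Fkbp5 (0.0376), Zbtb16 (0.177) and Mmp9 (-0.00582). Of 156 called named genes, 44 lost the call with the Gapdh covariate and 27 with the replicate block within compound. Without the arrays of SEW, FTY or fTyS, 102, 70 and 28 lost it. In all 18 fits without 1 array, 128 of the 156 kept the call. The other 28 lost it in 1 to 13 of them: Agr2, Arntl, Bmp4, C3ar1, C5ar1, Ccl9, Chad, Gp5, Gpx3, H2-Eb1, Hspd1, Igfbp3, Igha, Iglv1, Inmt, Itga2b, Kit, Masp1, Mmp9, Per1, Prf1, Scd1, Scgb3a2, Smad4, Tef, Tgfb1, Trp53bp1 and Tubb1.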
